A study of Mus musculus with 18 samples.

Results

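Pax3, Pax6, Pax7, Msx1, Msx2, Gsx1, Gsx2, Irx3, Irx5 and Dbx2 encode homeodomain transcription factors that divide the developing neural tube into zones along its dorsal-ventral axis. They were chosen by name as a set of such factors, with earlier results of these data known. All 10 were found among the 23228 genes of the expression table. RNA was measured in 2 mouse samples of the ICR strain, both labelled wild type. The neural tube sample was GFP-positive cells sorted from E12.5 neural tubes of embryos with the 2.3Ptf1a-GFP transgene. It drives GFP from a beta-globin basal promoter and a 2.3 kb enhancer through which Ptf1a regulates itself. The pancreas sample was unsorted whole tissue at E15.5. The labels name 2 libraries for each sample, but the table holds 1 value per gene and sample, so no value has a replicate error and no difference was tested. In addition to tissue, the samples differ in stage, sorting and RNA extraction, and these cannot be told apart.

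Along the dorsal-ventral axis, BMP and Wnt proteins from the roof plate and Sonic hedgehog from the floor plate switch homeodomain genes on or off at different positions. Many of the encoded proteins repress one another and recruit Groucho corepressors, which sharpens the borders between progenitor zones. Each zone gives rise to its own neurons, and Ptf1a is expressed in a dorsal zone whose cells become inhibitory interneurons. Outside the neural tube, Pax6 also acts in the hormone-producing cells of the pancreas, and Pax3, Pax7, Msx1 and Msx2 act in neural crest or muscle precursors.

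Within the set, Pax6 was the only member above 5 FPKM in each sample. The other 9 members, among them Gsx1 and Gsx2, were listed at 0 or below 0.1 FPKM in pancreas. FPKM counts fragments per kilobase of transcript, scaled by the number mapped. For orientation, RefSeq promoters of Pax6, Gsx1 and Gsx2 are printed. Each runs from 250 bases before to 50 bases after an annotated start on GRCm38.p6. The table of promoters gave 9 entries for 8 of the 10 members and none for Pax3 and Irx5. Pax6 has 2 entries whose starts lie 13.6 kb apart, chr2:105668646-105668945 and chr2:105682213-105682512, both on the plus strand. Gsx1 is at chr5:147188446-147188745 and Gsx2 at chr5:75075351-75075650, also on the plus strand. Capitals mark the E-box CANNTG, to which basic helix-loop-helix factors such as Ptf1a bind, the RBPJ core TGGGAA, the TATA box TATAAA and the homeodomain core TAATTA, each searched on both strands.
Pax6, first start: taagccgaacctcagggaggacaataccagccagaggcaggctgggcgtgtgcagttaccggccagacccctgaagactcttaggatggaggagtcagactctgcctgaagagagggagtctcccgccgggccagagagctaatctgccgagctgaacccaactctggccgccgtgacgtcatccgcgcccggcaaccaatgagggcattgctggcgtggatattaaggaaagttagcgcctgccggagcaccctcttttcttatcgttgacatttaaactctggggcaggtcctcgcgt
Pax6, second start: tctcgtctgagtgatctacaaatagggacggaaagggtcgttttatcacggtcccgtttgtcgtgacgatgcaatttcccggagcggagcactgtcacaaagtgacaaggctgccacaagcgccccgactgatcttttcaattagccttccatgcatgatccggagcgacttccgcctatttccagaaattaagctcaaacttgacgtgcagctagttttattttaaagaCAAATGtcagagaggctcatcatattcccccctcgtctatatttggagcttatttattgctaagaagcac
Gsx1: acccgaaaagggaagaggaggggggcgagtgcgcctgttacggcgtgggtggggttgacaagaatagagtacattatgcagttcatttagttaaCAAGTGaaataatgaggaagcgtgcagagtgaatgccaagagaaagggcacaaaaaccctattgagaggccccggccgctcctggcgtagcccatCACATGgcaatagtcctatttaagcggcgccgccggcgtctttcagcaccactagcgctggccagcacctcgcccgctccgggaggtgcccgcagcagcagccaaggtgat
Gsx2: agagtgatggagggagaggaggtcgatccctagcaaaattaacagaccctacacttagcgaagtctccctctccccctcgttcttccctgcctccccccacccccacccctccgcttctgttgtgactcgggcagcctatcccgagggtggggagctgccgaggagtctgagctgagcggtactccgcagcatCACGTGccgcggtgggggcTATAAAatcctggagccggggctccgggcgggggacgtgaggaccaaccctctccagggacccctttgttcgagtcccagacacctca

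The first Pax6 promoter held none of these motifs, and the second held 1 E-box. Gsx1 held 2 E-boxes, and Gsx2 held 1 E-box at position -57 from the start and, at -38, the single TATAAA match among the members. Across the 9 member promoters 6 held an E-box, 2 the RBPJ core, 1 the TATA box and 1 the homeodomain core. Of all 32851 promoters of that length, 72.3% held an E-box, 25.6% the RBPJ core, 13.6% the TATA box and 5.29% the homeodomain core. The RBPJ core matches were in Msx1 and Irx3 and the homeodomain core match in Msx2. CpG dinucleotides were 0.748 of the number expected from base composition in the median member promoter, against 0.384 in the median of all promoters. The members ranged from 0.416 in Dbx2 to 0.998 in the second Pax6 promoter, and 6 of 9 were at 0.6 or more, compared with 35.8% of all promoters. A match describes the letters only, and the files used here hold no binding data.

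In the sorted neural tube cells 9 of the 10 genes were present at 5 FPKM or more, and in pancreas only Pax6 was. A gene was called higher in a sample when log2(FPKM + 1) differed by at least 2, which is 4 times, and the higher value was at least 5 FPKM. By this rule of size 8 of 10 members were called higher in neural tube and 0 in pancreas. Of all 23228 genes in the table, 4.76% were called higher in neural tube and 1278 genes in pancreas. The median difference of the 10 members was 3.15 in log2(FPKM + 1), and that of all genes was 0. The median level of the members was 12.2 FPKM in neural tube and 0.0276 FPKM in pancreas, beside 1.46 and 2.00 for all genes. Of the 2 genes that were not called, Pax6 was above 5 FPKM in both samples and Dbx2 below 1 FPKM in both.

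**Figure D1:**
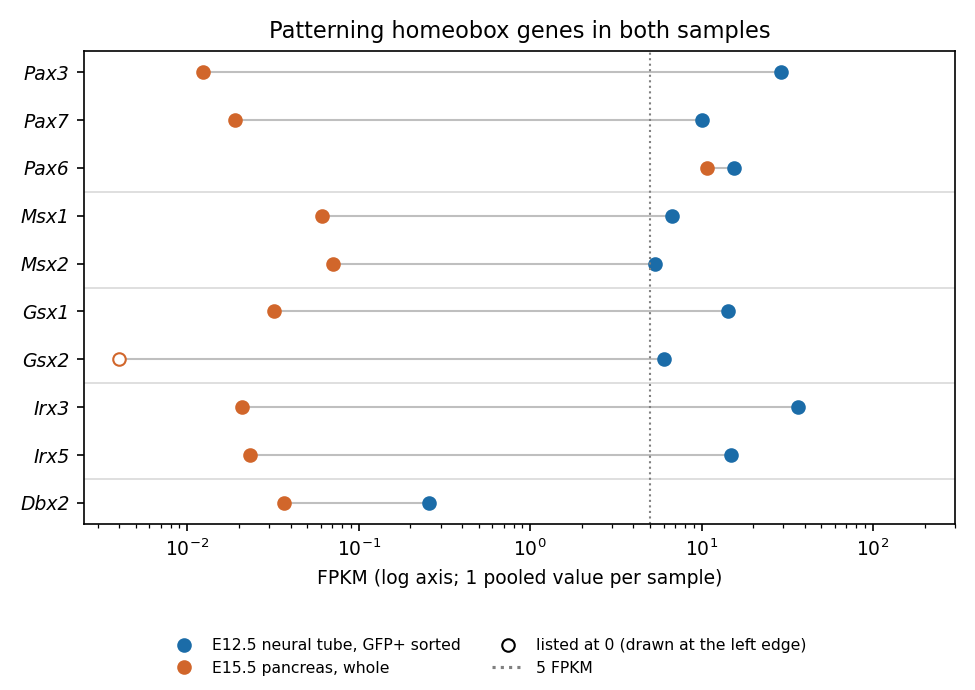
FPKM of the 10 homeobox genes on a log axis in sorted E12.5 neural tube cells (blue) and whole E15.5 pancreas (orange), 1 pooled value each, with families separated by grey lines. Pax6 has both values above 5 FPKM, Dbx2 has both below 1, and the other 8 genes lie above 5 FPKM in neural tube and below 0.1 in pancreas.

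The values in pancreas were near the limit of the measurement for 9 of the 10 genes. All 9 were below 0.1 FPKM there, and 1 of them, Gsx2, was listed at 0. From the lowest steps of the values, 1 fragment on a 1 kb transcript was worth about 0.0442 FPKM in neural tube and 0.0227 FPKM in pancreas. With annotated transcript lengths, this put Pax3, Gsx1, Irx3 and Irx5 at about 2 to 3 fragments in pancreas, Msx1 and Dbx2 at about 5 to 6 and Msx2 at about 8. Pax7 had between 1 and 5, depending on its transcript. These counts are approximate, so no ratio between the samples is given for these genes. Of the 9 members that reached 5 FPKM in neural tube 8 were below 0.1 FPKM in pancreas, as were 1.76% of the 8865 genes of the table that reached that level.

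Pax3 and Pax7 mark the dorsal part of the neural tube and are closely related paired-type factors. Pax3 (chromosome 1, 78097842 to 78193709, minus strand, mm9) was at 29.2 FPKM in the sorted cells and 0.0123 in pancreas, and its difference in log2(FPKM + 1) was 4.90. Pax7 (chromosome 4, 139292977 to 139389445, minus strand) was at 10.05 and 0.0190 FPKM, a difference of 3.44. In neural tube Pax3 was thus 2.90 times the level of Pax7 per length, while both were near the detection limit in pancreas. Pax3 was higher than 88.6% of all genes in neural tube, and Pax7 than 72.2%.

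Pax6, which acts in progenitors of the intermediate and ventral neural tube and in several neuron types, was the member shared by both samples. Pax6 (chromosome 2, 105509053 to 105543317, plus strand) was at 15.52 FPKM in the sorted cells and 10.8 in pancreas, a ratio of 1.43 and a difference of 0.48 in log2(FPKM + 1). It made up 97.5% of the summed FPKM of the set in pancreas, and 11.2% in neural tube. The annotation gives Pax6 33 transcripts of very different length and 2 genes on the opposite strand that overlap it, Elp4 and Pax6os1. Whether the authors' counting used strand is not given in the sources used here, so reads of overlapping genes may not be separated. The table holds 1 value per gene and does not show which Pax6 promoter was used.

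Hormone genes stood beside the Pax6 level in pancreas. All 15 genes of an endocrine list were above 1 FPKM there, with a sum of 2896 FPKM and a range from 2.35 to 1370, and 8 were called higher in pancreas. In neural tube the same list summed to 212 FPKM, 145 of which was Sst, and 4 genes were listed at 0, among them both insulin genes. Pax4, a relative of Pax6 needed in the endocrine lineage, was at 4.07 FPKM in pancreas and 0.0340 in the sorted cells. The part of endocrine cells in the Pax6 level was not tested, and in whole tissue fewer expressing cells cannot be told apart from less RNA per cell.

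**Figure D2:**
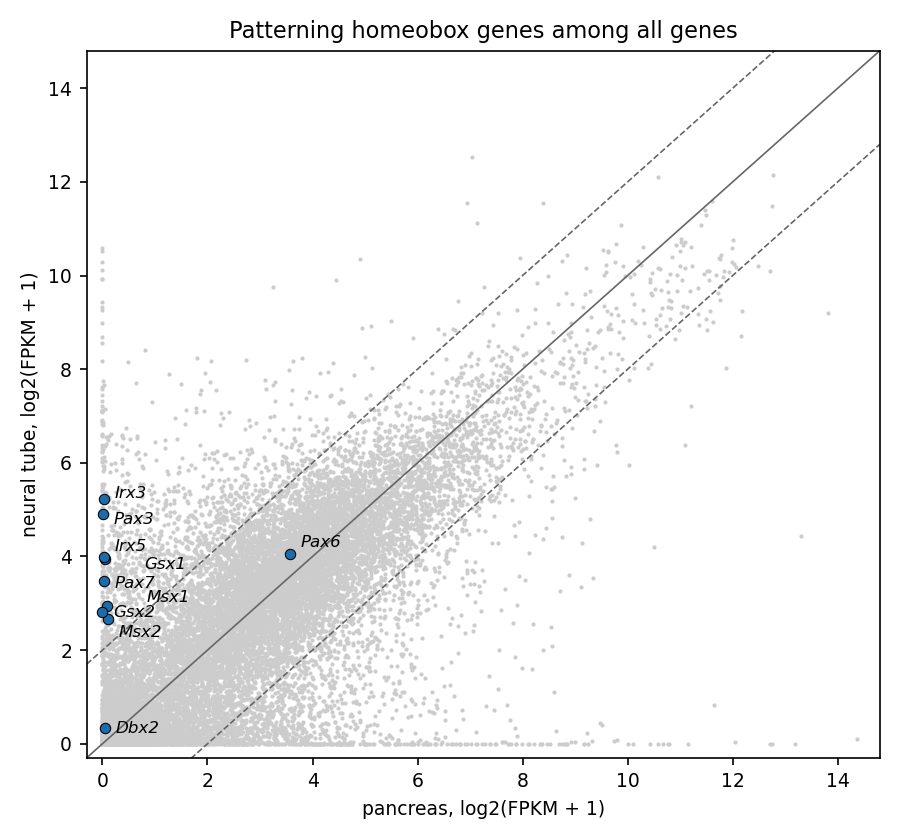
Level of every gene as log2(FPKM + 1) in pancreas (horizontal) and neural tube (vertical), with the 10 homeobox genes in blue; the solid line is equality and the dashed lines a difference of 2. The 8 called genes lie along the left edge above the upper dashed line, Pax6 lies near the line of equality and Dbx2 near the origin.

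Msx1 and Msx2 are targets of BMP signals at the dorsal midline, and they were the lowest of the called genes together with Gsx2. Msx1 (chromosome 5, 38211724 to 38215822, minus strand) was at 6.73 FPKM in the sorted cells and 0.0608 in pancreas, a difference of 2.87. Msx2 (chromosome 13, 53562250 to 53568443, minus strand) was at 5.37 and 0.0710 FPKM, a difference of 2.57. Msx2 lay just inside the minimum of 5 FPKM. Levels of the pair differed by only 1.25 times in neural tube. The third gene of the family, Msx3, whose expression is known from the dorsal neural tube, was at 60.0 FPKM in the sorted cells and 0.0101 in pancreas. Msx3 therefore stood 8.91 times above Msx1 and 11.2 times above Msx2.

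Gsx1 and Gsx2 act in dorsal progenitors, including those that give rise to Ptf1a-expressing cells. Gsx1 (chromosome 5, 148000272 to 148002523, plus strand) was at 14.4 FPKM in the sorted cells and 0.0321 in pancreas, a difference of 3.90. Gsx2 (chromosome 5, 75471489 to 75473918, plus strand) was at 6.07 FPKM and listed at 0 in pancreas, a difference of 2.82. In neural tube Gsx1 was 2.37 times the level of Gsx2. GENCODE M1 lists Gsx2 under 2 gene identifiers, and how the authors' annotation treated them is not given in the sources used here.

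Irx3 and Irx5 belong to the Iroquois family, and Irx3 is known to limit the motor neuron zone from its dorsal side. Irx3 (chromosome 8, 94322428 to 94325553, minus strand) had the highest neural tube level of the set, 36.7 FPKM against 0.0209 in pancreas, a difference of 5.21. Irx5 (chromosome 8, 94881695 to 94885351, plus strand) was at 14.9 and 0.0232 FPKM, a difference of 3.96. In neural tube Irx3 was 2.47 times the level of Irx5, and their starts lie 559 kb apart. A noncoding gene on the opposite strand, D230002A01Rik, overlaps Irx3.

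The Iroquois genes lie in 2 clusters, whose leading genes differed in pancreas level. Irx6, the third gene of the chromosome 8 cluster, was at 0.457 FPKM in the sorted cells and 0.0979 in pancreas. In the chromosome 13 cluster, Irx1 was at 15.3 FPKM in the sorted cells and 1.55 in pancreas, and Irx2 was at 20.2 and 2.53. Irx1 and Irx2 were thus at levels like that of Irx5 in neural tube but were above 1 FPKM in pancreas, where Irx3 and Irx5 were below 0.1. Irx4 was low in both samples, at 0.889 and 0.0685 FPKM.

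Dbx2 marks progenitors near the middle of the dorsal-ventral axis and was the member with the lowest neural tube level. Dbx2 (chromosome 15, 95453994 to 95486391, minus strand) was at 0.257 FPKM in the sorted cells and 0.0364 in pancreas, with a log2(FPKM + 1) difference of 0.28. The neural tube value corresponds to about 20.1 fragments on its annotated transcript. Its relative Dbx1, also of the middle region, was at 1.74 FPKM in the sorted cells and 0.0117 in pancreas.

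By level in neural tube the order was Irx3, Pax3, Pax6, Irx5, Gsx1, Pax7, Msx1, Gsx2, Msx2 and Dbx2. Pax6, Irx5 and Gsx1 lay between 14.4 and 15.52 FPKM, and Msx1, Gsx2 and Msx2 between 5.37 and 6.73. Without replicates, the order within each of these groups has no error to be judged against. Of the 10 genes 6 were at 10 FPKM or more there.

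**Figure D3:**
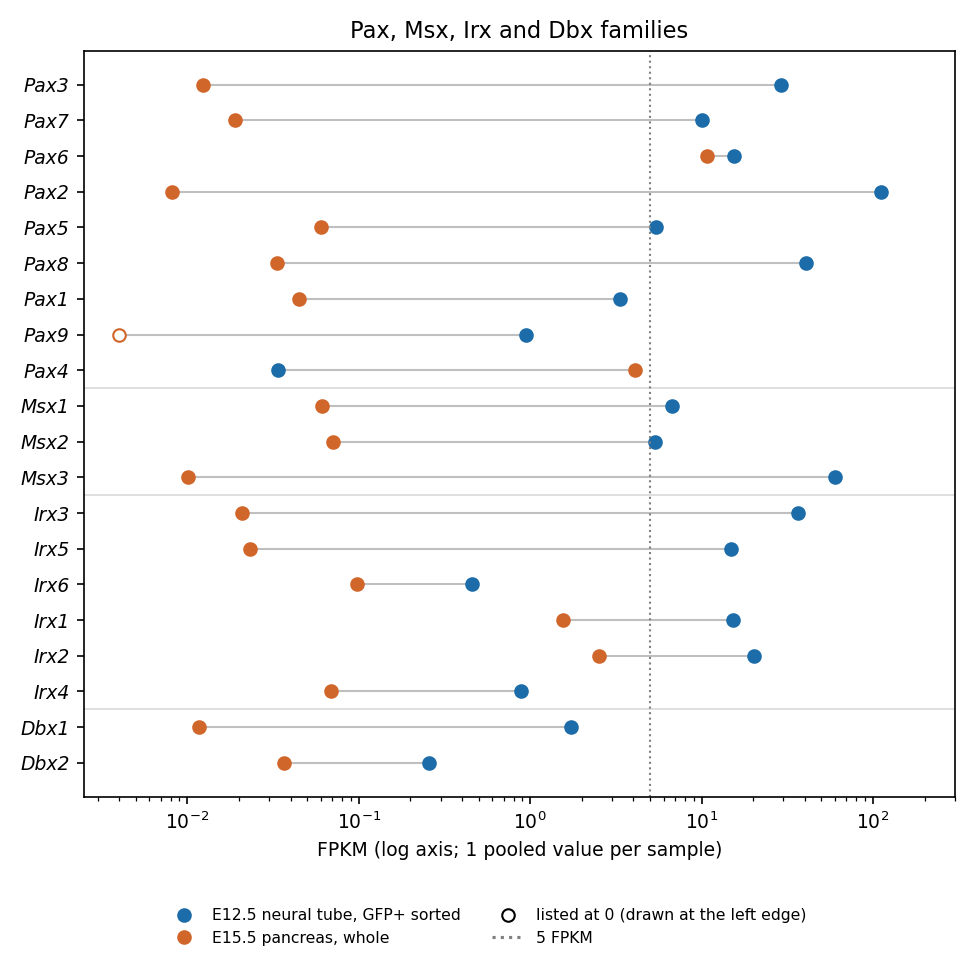
FPKM of all Pax, Msx, Irx and Dbx genes on a log axis in neural tube (blue) and pancreas (orange), 1 pooled value each, with families separated by grey lines. Msx3, at 60.0 FPKM in neural tube, stands above Msx1 and Msx2, and Irx1 and Irx2 have pancreas values above 1 FPKM where Irx3 and Irx5 are below 0.1.

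Other homeobox relatives split by sample. Of 20 such genes 9 were called higher in neural tube and 1 in pancreas, with a median difference of 1.75. The members of the list at 5 FPKM or more in neural tube were Pax2 at 112 FPKM, Msx3 at 60.0, Gbx2 at 57.0, Pax8 at 40.6, Gbx1 at 30.3, Irx2 at 20.2, Irx1 at 15.3, Lmx1b at 14.9 and Pax5 at 5.42. Pax2, Pax8, Gbx1 and Lmx1b are known in postmitotic dorsal neurons. Those at 5 FPKM or more in pancreas were Nkx2-2 at 9.19 FPKM and Nkx6-1 at 7.23, ventral neural factors that also act in the endocrine pancreas. They were at 0.243 and 1.33 FPKM in neural tube, and only Nkx2-2 was called.

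Of the bHLH factors of the dorsal progenitor zones, the 5 described here ranged from 0.840 to 29.3 FPKM in neural tube, beside 0.257 to 36.7 for the homeobox genes. Of these 5 genes 3 were called higher in neural tube and 0 in pancreas. Neurog2 was at 29.3 and Olig3 at 24.6 FPKM, both listed at 0 in pancreas. Neurog1 was at 5.68 FPKM in the sorted cells and 0.0153 in pancreas, and Atoh1, of the zone next to the roof plate, was at 0.840 and 0.0237. Ptf1a, whose enhancer selected the cells, was at 22.5 FPKM in the sorted cells and 37.1 in pancreas.

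Factors and products of the inhibitory interneurons had a higher median than the homeobox genes, with overlapping ranges. All 10 were called higher in neural tube, at a median of 65.2 FPKM against 12.2 for the patterning genes. Pax2 at 112 FPKM, Tfap2b at 92.4, Lhx1 at 91.1, Lhx5 at 80.7, Lbx1 at 73.7 and Tfap2a at 56.7 encode transcription factors. The vesicular transporter gene Slc32a1 was at 46.1, the GABA-synthesis genes Gad2 and Gad1 at 32.0 and 28.0, and the Ptf1a target Prdm13 at 30.5 FPKM. In pancreas none of the 10 exceeded 0.539 FPKM.

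Genes of the signals that set the axis were low in the sorted cells, and genes of the responses reached higher levels. Of 12 roof plate and dorsal signal genes 0 were called higher in neural tube and 1, Bmp7, in pancreas, where it was at 35.3 FPKM against 2.71. Gdf10 at 8.89 FPKM and Wnt3 at 4.79 were the highest of that list in neural tube. Of 9 BMP and Wnt target genes 2 were called higher in neural tube, Id4 and Axin2. Id4 was at 36.2 FPKM there against 4.78 in pancreas, and Axin2 at 22.4 against 3.53. The highest of the list in neural tube were Id3 at 80.5 and Id1 at 51.5 FPKM, which were not called. They were at 36.8 and 33.0 FPKM in pancreas, where Id2 was at 109 against 27.3 in neural tube. Of 11 hedgehog pathway and floor plate genes 4 were called higher in neural tube and 1, Foxa2, in pancreas. Among these Gas1 was at 87.3 FPKM and Boc at 37.4 in neural tube, while Shh was at 0.436. None of 13 ventral progenitor and neuron genes reached 5 FPKM in neural tube, and the highest was En1 at 2.83.

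Groucho corepressors, through which many patterning homeodomain proteins repress, were expressed in both samples. Of 6 genes 2 were called higher in neural tube and 1 in pancreas, with a median difference of 0.08. Tle3 was at 46.3 FPKM in the sorted cells and 8.18 in pancreas, and Tle4 at 14.6 and 2.07. Tle1 was at 18.3 and 8.30 FPKM, Tle2 at 5.06 and 10.2, and Aes, a short family member, at 137 and 287. Tle6 was at 0.327 FPKM in the sorted cells and 36.5 in pancreas. Of 9 Pbx, Meis and Pknox genes, whose products are homeodomain cofactors, 3 were called higher in neural tube. All 9 were at 5 FPKM or more in neural tube, led by Meis3 at 58.4 and Pbx2 at 49.2, and 6 were so in pancreas, led by Meis1 at 25.7.

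In the plane of both values, the listed gene nearest to each member was found among 209 genes, the members included, with 2 values per gene behind each distance. Neurog2 was nearest to Pax3, Tbp to Pax6, Gsx1 to Pax7, En2 to Msx1, Pax5 to Msx2 and Neurog1 to Gsx2. Gsx1 and Irx5 were nearest to each other, Pax8 was nearest to Irx3 and Dlx2 to Dbx2. The distance was largest for Pax7, at 0.47 in log2(FPKM + 1), and was 0.02 for both Pax3 and Msx2. For the 9 members below 0.1 FPKM in pancreas, the nearest gene was also near 0 there and had a similar neural tube level. Such a pairing therefore says little beyond that level and does not show a shared profile.

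Few of the genes next to the members on the chromosome were called in either direction. Coding genes that overlap a member, such as Elp4 at Pax6, were left out. The nearest other coding genes on either side gave 19 distinct genes that are not members, of which 18 were in the table. Of these 1 was called higher in neural tube and 1 in pancreas, near the shares of all genes, 4.76% and 1278 of 23228. The median difference of the 18 was -0.80. The gene called in pancreas was Pdx1, a master regulator of pancreas development that lies 79.0 kb from Gsx1, at 0.0293 FPKM in the sorted cells and 13.9 in pancreas. Gsx1 and Pdx1 are thus neighbours with opposite values in the 2 samples. On the other side of Gsx1, the polymerase subunit gene Polr1d was at 69.2 FPKM in the sorted cells and 153 in pancreas.

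The pattern at the other members varied. Nell2, a secreted neural protein gene 94.9 kb from Dbx2, was the neighbour called in neural tube, at 39.1 FPKM against 1.99 in pancreas. Close to Irx5, at 1.68 kb, 4933436C20Rik was at 4.29 FPKM in the sorted cells and 0.0762 in pancreas, a difference of 2.30 that missed the minimum level. It counts as coding here only by its type in GENCODE M1, and it was also the neighbour of Irx3 on that side, at 524 kb. Fto, next to Irx3 and host of long-range Irx3 enhancers, was at 33.1 and 20.1 FPKM. Beside Gsx2, Chic2 was at 25.8 FPKM in the sorted cells and 15.6 in pancreas, and the mesenchymal receptor gene Pdgfra was at 2.89 and 10.4.

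**Figure D4:**
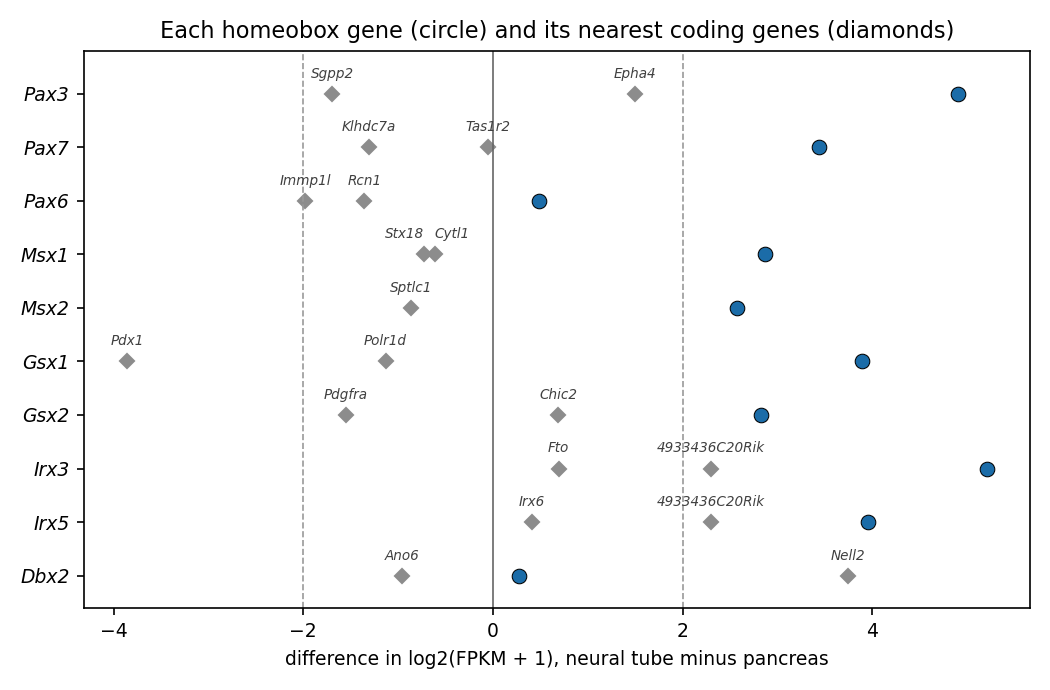
Difference in log2(FPKM + 1), neural tube minus pancreas, of each homeobox gene (blue circle) and of the nearest coding gene on either side (grey diamonds). Coding genes that overlap the homeobox gene are left out, and dashed lines mark a difference of 2 in either direction. Pdx1 lies on the pancreas side at -3.86 while its neighbour Gsx1 lies at 3.90, and Nell2 lies at 3.74 beside Dbx2 at 0.28.

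Markers checked the labels and other cells. In neural tube all 10 neural progenitor genes and all 9 neuronal genes found were at 5 FPKM or more, as were 5 and 3 of them in pancreas. Of these 8 and 9 were called higher in neural tube, while Prom1 was at 13.4 FPKM there against 30.7. The 12 acinar genes summed to 1.26 FPKM in neural tube against 38877 in pancreas. Because Pax3, Pax7, Msx1 and Msx2 are also expressed outside the neural tube, lists of such cells are given beside them. The 8 neural crest genes summed to 39.8 FPKM in neural tube against 29.5 in pancreas. Sox10, which defines these cells, was at 3.31 FPKM in the sorted cells. By the rule of size 1 of the 8, Ngfr, was called higher in neural tube, and 2 were called higher in pancreas. Of these 8 genes 2 were at 5 FPKM or more in neural tube, Ednrb at 17.8 and Ngfr at 13.2. Of 10 muscle and dermomyotome genes 2 were so, Tcf15 at 20.5 and Actc1 at 13.5, with a sum of 48.3 FPKM against 33.3, while Myf5 and Myod1 were at 0.382 and 0.389. Of 12 mesenchyme genes 4 were so, with a sum of 60.3 FPKM against 1272 in pancreas, where 10 of 12 were at 5 FPKM or more and Msx1 and Msx2 were below 0.1. Of that list 8 were called higher in pancreas and 1, Twist1, was called higher in neural tube like Msx1 and Msx2, at 15.8 FPKM against 1.39. Of 11 forebrain and midbrain genes, a region where Gsx2 and Pax6 also act, En2 at 6.91 FPKM was the only one above 1 in neural tube. Of 7 endothelial genes 1 was at 5 FPKM or more in neural tube, with a sum of 13.8 FPKM against 87.9 in pancreas. The part of such cells in the member values was not tested.

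Rescaling moved the calls over the whole table. Calls over all genes were 46.4% toward neural tube as deposited. This share was 67.0% with equal totals, 59.0% with equal totals without the 50 highest genes and 71.5% with housekeeping scaling. It was 45.4% with scaling to the median ratio and 42.7% with scaling to the upper quartile. The rescalings multiply the pancreas values, which lie below 0.1 FPKM for the 8 called members, so they could not change those calls and say nothing about them. Among genes that reached 1 FPKM in each sample the median difference was 0.02 as deposited. It moved to 0.55, 0.33, 0.68, 0 and -0.07 with the rescalings, in the order given above. Pax6, the member with a level in pancreas, moved with that median, and its difference ranged from 0.37 to 1.18 over all alternatives. With a pseudocount of 5 FPKM only Pax3 and Irx3 were still called, and with a minimum of 10 FPKM or a threshold of 8 times 5 members were, without Msx1, Msx2 and Gsx2.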

How the data were processed

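RNA sequencing values of 2 samples were used, out of 18 in the series, and the other 16, of chromatin, are not analysed here. The authors deposited FPKM values, 1 per gene and sample, per the file headers, and each column was read as a pooled value. Per the submitters' processing notes the tools were CASAVA, TopHat, TopHat2 2.0.4 and Cuffdiff 2.0.2 and the build was mm9. Per the labels' protocols, RNA came from a column kit for the sorted cells and from Trizol for pancreas, and both an mRNA-seq and a TruSeq preparation are named for pancreas. The gene annotation, strand use and filters were not given in the sources used here.

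Differences are log2(FPKM + 1) in neural tube minus pancreas, which understates those of low genes. Calls need a difference of 2 and 5 FPKM in the higher sample, and are rules of size, not tests. The rule for named genes took every member, genes at 5 FPKM or more of 4 related lists and at most the 2 highest genes per sample of the others. It also took the nearest listed gene and the nearest coding neighbours of each member that do not overlap it. Other genes named, such as Shh, Foxa2, Sox10, Myf5, Myod1, Prom1, Irx4, Irx6, Pax4, Dbx1 and Atoh1, were chosen after their values were seen. The members and the 19 further lists were chosen with earlier results of these data known. One gene of a list is not reported here and was left out of that list's counts. Positions and transcript lengths are from GENCODE M1 on NCBIM37 (mm9), and promoters from RefSeq on GRCm38.p6. Depth is not stated as counts. The value of 1 fragment was taken as the median FPKM times length in the most frequent low bin of genes with 1 transcript. It implies a depth 1.95 times greater in pancreas, is approximate and covers no biological variation. Alternatives were 2 pseudocounts, 2 minimum levels, 2 thresholds and 5 rescalings. The rule was tested on simulated data. Python 3.11.15, numpy 2.4.6, pandas 2.3.3 and matplotlib 3.10.9 were used.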

Additional observations from a re-analysis of the deposited data

How the results depend on the processing

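Of the 11 alternatives, the count of 8 members called higher in neural tube moved to 2 with a pseudocount of 5 FPKM. It moved to 5 with a minimum of 10 FPKM and to 5 with a threshold of 8 times, and was 8 in the others. Of those others, the 5 rescalings could not change it. A pseudocount of 0.1 FPKM, no minimum and a threshold of 2 times could only add members. The unchanged count in these settings therefore says nothing about how firm the calls are. With a pseudocount of 5 FPKM the members' median difference fell from 3.15 to 1.40, below the rule, and over all genes 512 were called higher in neural tube and 600 in pancreas, compared with 1106 and 1278. Those counts were 2494 and 2690 with a threshold of 2 times and 546 and 653 with 8 times. They were 1818 and 723 with housekeeping scaling, and 804 were higher in pancreas with equal totals. No paired analysis was possible because each sample has 1 pooled value, and for the same reason no replicate could be left out. In pancreas every member except Pax6 rests on an estimated 8 fragments or fewer.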
